A study of Mus musculus with 4 samples.

Results

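Murine embryonic fibroblasts (MEFs) that carried a non-phosphorylatable form of the retinoblastoma protein in place of their own (ΔCdk Rb-HA, labelled Cre + dCDK) were compared directly with MEFs in which Rb had been deleted and not replaced. Each of these groups was 1 array, so 2 of the 4 arrays of the series entered the comparison. A gene was analysed if a probe for it was detected on either array, at a detection p-value below 0.01 against the negative control probes, and its brightest such probe was taken. By this rule 12367 of the 30872 gene symbols on the whole-genome array were analysed. The comparison asks how the messages of cells whose Rb cannot be phosphorylated by cyclin-dependent kinases (Cdks) differ from those of cells with no Rb.

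All MEFs were of the mixed FVB;129 strain, and the study describes them as carrying floxed Rb alleles. The Rb-deleted MEFs received TAT-Cre, a cell-permeable recombinase, in 2 treatments of 1 h, 3 h apart, and media alone in place of virus. The ΔCdk Rb-HA MEFs received the same TAT-Cre treatments and a retrovirus that carried the phospho-mutant Rb, so that it was expressed when the endogenous gene was removed. The remaining arrays were parental MEFs, given neither Cre nor virus, and WT Rb-HA MEFs, given TAT-Cre and a retrovirus with wild type Rb. According to the study's methods, all cells had been released from contact inhibition and treated with a low dose of the DNA-damaging drug doxorubicin before RNA was taken, which the labels do not mention. Infection and the ΔCdk form of Rb cannot be told apart in this comparison, because the Rb-deleted MEFs were not infected. For that reason the WT array, the other infected one, is given beside the main values, although both comparisons share the Rb-deleted array. The arrays of infected cells are called the ΔCdk and WT arrays below. With 1 array on each side there is no replicate spread and no test. The error given with a difference is the bead standard error (bead SE), which covers the spread between the beads of a probe within an array and not the spread between cultures.

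Rb binds E2F transcription factors and holds back genes for DNA replication and S phase until Cdks phosphorylate it. Without Rb this brake is lost. The ΔCdk form lacks the sites that Cdks phosphorylate. Fibroblasts also secrete the collagens, elastic fibre proteins and proteases of the matrix, and they answer type I interferon by switching on antiviral genes through factors such as STAT2 and IRF9.

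The array of each condition was checked first. The signal of Rb1, the deleted gene, was 543 in parental and 160.5 in Rb-deleted cells. It was 181 with WT and 170.1 with ΔCdk Rb-HA. All 3 arrays of TAT-Cre-treated cells were thus lower than the parental one, and ΔCdk Rb-HA differed from Rb-deleted by only 0.13 ± 0.08 on the log2 scale. Both Rb1 probes, at transcript positions 4421 and 4002, lie beyond the coding sequence, so they check the deletion and not the retroviral Rb. Of 15 fibroblast markers all were detected on both arrays, with 1 member past the threshold, Pdgfrb, a growth factor receptor, at -0.95 ± 0.10. Markers of epithelial, endothelial, muscle and neural cells were analysed for 7 of 19 genes, and none was past the threshold. Leukocyte and macrophage markers were analysed for 21 of 34 genes, with a summed intensity of 6432 on the Rb-deleted array and 7262 on the ΔCdk array. The sum was 12405 on the parental array. The median log2 difference of the 21 was -0.18, so the higher sum on the ΔCdk array was not shared by most members. Ptprc and Itgam, which define leukocytes and myeloid cells, were not detected on either array. Since the 21 other members were detected on at least 1 of them, this does not show that such cells were absent. Fewer cells of a type and less RNA per cell cannot be told apart in these bulk samples.

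Between the arrays, 292 genes were higher and 246 genes were lower in ΔCdk Rb-HA MEFs by more than 1.6-fold, the filter the study used. These were 2.36% and 1.99% of the genes analysed, and the counts within lists below are to be read beside these shares. The median log2 difference over all genes was -0.03, with the 5th and the 95th percentile at -0.51 and 0.50. The 2-fold mark was passed by 99 higher and 67 lower genes, and the 4-fold mark by 13 and 2. All these counts of higher genes include 4 probes that are named by a bare number and paired with no gene, described below. The median bead SE of a difference was 0.09, while the filter is 0.68 on the log2 scale. All 538 genes past 1.6-fold were also more than 2 bead SE away from 0, which such a filter makes nearly certain in advance. Of the higher genes 45 were not detected on the Rb-deleted array, and of the lower genes 43 were not detected on the ΔCdk array. These passed the filter only through the array on which they were bright. With the dim array set to its lowest detected level, 267 higher and 216 lower genes remained past 1.6-fold. The size of a difference between dim probes also depended on the background correction, and without it 159 of the 292 higher genes and 118 of the 246 lower genes were past 1.6-fold.

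**Figure D1:**
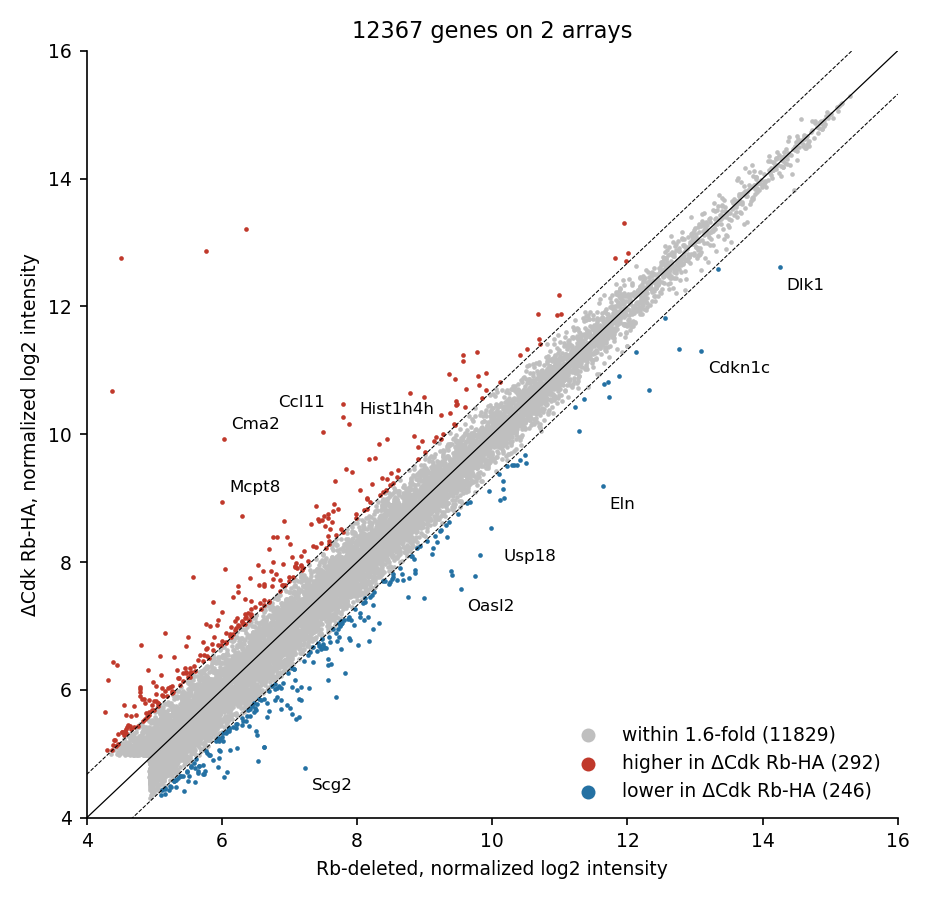
Normalized log2 intensity of 12367 genes on the Rb-deleted array (x axis) and the ΔCdk array (y axis), 1 point a gene. Dashed lines mark 1.6-fold, and 292 genes (red) lie above and 246 (blue) below them. The labelled genes are described in the text.

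The largest differences came from 4 probes named by a bare number. Their intensities were between 41.2 and 105.3 on the Rb-deleted array and between 1619 and 9491 on the ΔCdk array. They were also between 976 and 6540 on the WT array and between 41.7 and 122.8 on the parental array. The probes were thus bright on both arrays of infected cells and near background on both arrays of uninfected cells. The other 51 probes with such names stayed at or below 54.0 on both arrays compared. The table pairs none of them with a gene, and they are not described further.

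Of the 35 gene lists compared, that of interferon-induced effectors held the most lower genes. Of 36 analysed effectors, 16 were lower by more than 1.6-fold and none was higher, with a median log2 difference of -0.58 against -0.03 over all genes. Of the 36 genes, 34 were below 0, as were 6766 of all 12367 genes analysed. With undetected levels at their bound, 13 effectors were lower and the median was -0.52.

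Oasl2, of the oligoadenylate synthetase family that senses viral RNA, had an intensity of 762 on the Rb-deleted array and of 212 on the ΔCdk array, a log2 difference of -1.95 ± 0.07. Its intensity was 658 on the WT array and 3690 on the parental array. Usp18, which removes the ubiquitin-like modifier ISG15 and damps interferon signalling, read 924 and 295 on the 2 arrays compared, with 961 on the WT array. A log2 difference of -1.70 ± 0.08 in ΔCdk Rb-HA thus stood beside one of 0.07 ± 0.06 in WT Rb-HA. Both genes were highest in parental cells, similar in Rb-deleted and WT cells and lowest in ΔCdk Rb-HA.

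Ifit3, a tetratricopeptide protein of the antiviral response, read 537, 569 and 194 in Rb-deleted, WT and ΔCdk cells. Its difference was -1.55 ± 0.08. Ifi27 read 878, 535 and 241 on the same arrays, a difference of -1.95 ± 0.08, and on this gene the WT array lay between the others. Rsad2, which encodes the antiviral enzyme viperin, read 250.4, 134 and 100.4 on these arrays, with differences of -1.56 ± 0.09 for ΔCdk Rb-HA and -1.05 ± 0.09 for WT Rb-HA. Rsad2 was therefore low on both infected arrays, unlike Usp18 and Ifit3. Further lower genes of the 15 largest decreases were Tyki, a nucleotide kinase induced by interferon, at -1.56 ± 0.13, and Rnf213, a large ubiquitin ligase, at -1.63 ± 0.05. LOC100048346, annotated as similar to the protease encoded by Usp18, differed by -1.61 ± 0.07. The table does not say whether its probe and that of Usp18 can tell these messages apart.

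Interferon-inducible GTPases, which act on membranes around intracellular pathogens, were lower for 6 of 7 analysed members, with a median of -0.94. One of these 6, Gbp6, was not detected on the ΔCdk array and was lower by at least 1.48-fold. Igtp read 214 on the Rb-deleted, 203 on the WT Rb-HA and 94.6 on the ΔCdk array, a difference of -1.42 ± 0.13. Iigp2 read 284, 286 and 127 on these arrays, a difference of -1.31 ± 0.08. Gbp3 and Gbp2 differed by -1.002 ± 0.13 and -0.94 ± 0.06. Irgm1, a GTPase of the same family, went against the rest with 4901 on the Rb-deleted and 6024 on the ΔCdk array, a log2 difference of 0.29 ± 0.07. For the WT array the median of the 7 GTPases against the Rb-deleted array was 0.02.

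The promoters of these genes were searched for the interferon-stimulated response element, written here as GAAANNGAAA and read on both strands, in the 250 bases before the start site of the RefSeq annotation (GRCm38.p6). Of the 7 GTPases 6 matched a promoter, and all 6 held the element, against 3.04% of all 27025 promoters and 2.45% of the 8664 matched genes analysed. The 7 GTPases include Irgm1, which went the other way, and the count was not split by direction. Stretches around it are shown for 4 GTPases and for Ifit3 and Rsad2, as examples of lower genes that hold it. They run 5′ to 3′ in the direction of the gene, with every match in capitals. A match describes the sequence and is no evidence of binding.
Igtp, chr11:58199466-58199555, plus strand: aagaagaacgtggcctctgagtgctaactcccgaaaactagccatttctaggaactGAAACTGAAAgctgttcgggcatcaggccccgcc
Iigp2 (RefSeq name Irgm2), chr11:58214873-58214962, plus strand: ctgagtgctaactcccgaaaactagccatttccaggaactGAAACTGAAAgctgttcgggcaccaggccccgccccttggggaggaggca
Gbp3, chr3:142559954-142560043, plus strand: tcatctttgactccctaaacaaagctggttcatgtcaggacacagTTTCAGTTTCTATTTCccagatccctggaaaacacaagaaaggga
Gbp2, chr3:142620564-142620653, plus strand: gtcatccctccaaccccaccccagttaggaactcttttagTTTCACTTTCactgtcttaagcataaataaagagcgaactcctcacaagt
Ifit3, chr19:34583350-34583439, plus strand: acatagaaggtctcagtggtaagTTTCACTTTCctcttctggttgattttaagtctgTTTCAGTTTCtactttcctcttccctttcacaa
Rsad2, chr12:26456523-26456612, minus strand: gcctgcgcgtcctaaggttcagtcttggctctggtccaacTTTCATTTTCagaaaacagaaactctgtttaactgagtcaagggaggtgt

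The Igtp and Iigp2 stretches lie at separate places but hold the element in the same bases and share much of the sequence around it. Ifit3 holds 2 separate copies. Among the effectors only 28 of 36 matched a promoter, under 80 of 100, so the element cannot be counted over the whole list. Only 6 of those 28 held it. Ifit3 and Rsad2 were picked from the ones that did, so they do not stand for the list.

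Regulators of the interferon response were lower in part. Of 18 analysed members 4 were lower and 1 was higher. The lower ones included Irf7, the factor that amplifies interferon production, at -1.52 ± 0.17, and Irf9 and Stat2, which carry the interferon signal to the response element, at -1.07 ± 0.08 and -1.06 ± 0.13. On the WT array Irf7, Irf9 and Stat2 differed from the Rb-deleted array by -0.07 ± 0.13, -0.09 ± 0.08 and 0.03 ± 0.10. Ifi205, a DNA sensor, was the higher member, with 57.3 on the Rb-deleted, 97.3 on the WT Rb-HA and 116.0 on the ΔCdk array, a difference of 1.44 ± 0.13. In the MHC class I antigen presentation list 1 of 17 analysed genes was lower, the peptide transporter Tap1, at -0.69 ± 0.11, just past the filter.

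Of the same 35 lists, that of the replication-dependent H4 histone genes was the only one with every analysed member past the filter. Of the H4 genes all 8 analysed were higher, with a median of 1.68, and of the H2B genes 9 of 10, with a median of 1.50. The 4 core histones package newly made DNA in S phase, and their messages are normally made together.

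Hist1h4k read 102 on the Rb-deleted, 226 on the WT Rb-HA and 431 on the ΔCdk array, a difference of 2.42 ± 0.11, and 167 on the parental array. Hist1h4h read 260.3, 621 and 1138 on the same 3 arrays, a difference of 2.27 ± 0.05, and 414 on the parental array. Hist1h4a and Hist1h4j differed by 1.86 ± 0.06 and 1.72 ± 0.09. In these 4 genes the Rb-deleted array was the lowest of all and the ΔCdk array the highest. The smallest difference was that of Hist1h4d, which was not detected on the Rb-deleted array and was higher by at least 1.51-fold, which is under the filter. The largest H2B differences were those of Hist1h2bm at 1.59 ± 0.08, Hist1h2bh at 1.59 ± 0.07, Hist1h2be at 1.59 ± 0.05 and Hist1h2bk at 1.53 ± 0.05. Hist1h2be, the brightest of the 4, read 783 on the Rb-deleted, 1758 on the WT Rb-HA and 2271 on the ΔCdk array. Hist1h2bg was the one H2B gene without a difference of that size, at -0.02 ± 0.15.

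H3 and H1 genes were higher for 5 of 8 analysed members, with a median of 0.97. Hist1h3a, Hist1h3f, Hist1h3e and Hist1h3d differed by 1.29 ± 0.11, 1.27 ± 0.09, 1.18 ± 0.07 and 1.04 ± 0.08. H2A genes as a list did not share the pattern. Of 15 analysed members 1 was higher, Hist1h2ab, which was not detected on the Rb-deleted array and was higher by at least 1.91-fold, and the median was -0.03. The brightest H2A probe, that of Hist1h2af, read 6327 on the Rb-deleted and 6278 on the ΔCdk array. On the WT array the medians against the Rb-deleted array were 1.16 for H4 and 1.12 for H2B. They were 0.56 for H1 and H3 and -0.18 for H2A. The other infected array was thus also higher for H4, H2B and H3. Summed intensities on the uninfected parental array were above those on the Rb-deleted array for these lists as well. They were 11036 and 6142 for H2B, 2221 and 1607 for H4, and 12852 and 10433 for H1 and H3. For H2A they were 17695 and 29227.

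Members of a histone family are close in sequence, which limits how far their probes are separate measurements. Within 5 mismatches of another listed histone probe lay none of the 8 H4 probes, 3 of the 10 H2B probes, 4 of the 8 H1 and H3 probes and 7 of the 15 H2A probes. The probes were compared only with each other and not with the messages of other family members. A probe at another position could still bind the message of a close member, which was not tested, so the H4 probes may not be separate measurements. Hist1h2bf and Hist1h2bk differ by 1 base, as do Hist1h3d and Hist1h3e, so those pairs cannot be told apart. The 7 close H2A probes had log2 differences between -0.32 and 0.001, and the other H2A probes between -0.05 and 1.01. The H2A median thus rests in part on probes that may repeat the same signal. The cRNA was made with a kit that primes on poly(A) tails, while most messages of these genes end in a stem-loop, and how this bears on the differences was not tested.

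Promoters were matched for all 8 H4 genes, for 8 of the 10 H2B genes and for all 15 H2A genes. The octamer ATTTGCAT, bound by Oct factors and known from H2B promoters, was found on either strand within 250 bases before the start in 3 of 8 H2B, 5 of 15 H2A and 0 of 8 H4 promoters, against 1.61% of all promoters and 1.34% of those of the genes analysed. An E2F-type site, TTTGGCGC, TTTCCCGC or TTTCGCGC, was found in 1 of 8 H4, 3 of 8 H2B and 3 of 15 H2A promoters, against 1.59% of all promoters and 3.10% of those of the genes analysed. Both elements were present in the H2A list as well as in the H2B list. The counts were not split by the size or direction of the difference, so the list medians do not describe the genes that hold an element. Stretches are shown for 2 of the highest H2B genes, with the octamer in capitals, and for Hist1h4a, with 2 of its 4 E2F-type sites in capitals and the others outside the stretch. They were picked among the genes that hold an element and do not stand for their lists, and not every H2B promoter with the octamer is shown.
Hist1h2bm, chr13:21721954-21722043, plus strand: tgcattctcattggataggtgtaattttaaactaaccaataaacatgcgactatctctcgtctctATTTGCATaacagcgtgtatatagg
Hist1h2bk, chr13:22035731-22035820, plus strand: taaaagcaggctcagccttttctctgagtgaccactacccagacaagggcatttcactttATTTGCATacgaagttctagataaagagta
Hist1h4a, chr13:23761277-23761366, minus strand: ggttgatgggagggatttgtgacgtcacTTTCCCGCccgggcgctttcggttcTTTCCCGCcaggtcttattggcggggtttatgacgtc

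The histone genes also set the chromosomal pattern. Of 315 analysed genes placed on chromosome 13, where the largest histone cluster lies, 30 were higher, or 9.52%, and 22 of the 30 were in the histone lists. On the other autosomes and the X chromosome the share of higher genes ran from 1.04% to 4.17%.

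Genes of DNA replication, the classical targets of E2F, differed less. Of 23 analysed genes for licensing and firing origins, 2 were lower and none was higher, with a median of -0.19. Of the 23, 18 were below 0, as were 6766 of all 12367 genes analysed. Mcm6 and Mcm2, subunits of the replicative helicase, were the lower ones. Mcm6 read 273 on the parental, 1164 on the Rb-deleted, 507 on the WT Rb-HA and 624 on the ΔCdk array, a difference of -0.89 ± 0.08 for ΔCdk Rb-HA and of -1.23 ± 0.08 for WT Rb-HA. Mcm2 read 178, 631, 314 and 374 on the same arrays, a difference of -0.74 ± 0.06 for ΔCdk Rb-HA and of -1.05 ± 0.07 for WT Rb-HA. Both genes were thus lowest in parental and highest in Rb-deleted cells, with ΔCdk Rb-HA above WT Rb-HA.

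Other helicase subunits had smaller values of the same sign, with Mcm3 at -0.53 ± 0.10, Mcm4 at -0.51 ± 0.05 and Mcm5 at -0.39 ± 0.05. Mcm5 read 1274 on the Rb-deleted, 565 on the WT Rb-HA and 950.1 on the ΔCdk array, so it was below the Rb-deleted level on both, and further below on the WT array. Cdc6, which loads the helicase, read 162, 107 and 179 on these arrays, and its log2 difference was 0.20 ± 0.09 for ΔCdk Rb-HA and -0.76 for WT Rb-HA. The licensing list's median against the Rb-deleted array was -0.71 on the WT array. The promoter of Mcm6 holds 3 matches of the E2F-type site above, 2 of which overlap on opposite strands in the stretch shown. Only 18 of the 23 licensing genes matched a promoter, so no count over that list is given.
Mcm6, chr1:128359765-128359854, minus strand: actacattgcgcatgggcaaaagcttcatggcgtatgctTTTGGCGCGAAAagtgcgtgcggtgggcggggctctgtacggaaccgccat

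The remaining lists of DNA synthesis gave 1 lower gene each and no higher one, where 1.99% of all genes analysed were lower and 2.36% higher. In lists of this size 1 gene does not set a list apart from all genes. Among 24 polymerase, primase, clamp and RPA genes, with a median of -0.26, it was the ligase Lig1, at -0.68 ± 0.07, which lies on the edge of the filter. Among 16 genes of deoxynucleotide synthesis, with a median of -0.11, it was Cad, which starts pyrimidine synthesis, at -0.74 ± 0.07. Among 20 repair genes, with a median of -0.21, it was Ung, which removes uracil from DNA, at -0.99 ± 0.08, with 490.1 on the Rb-deleted, 243 on the WT Rb-HA and 253 on the ΔCdk array. Among 15 genes of chromatin assembly and DNA methylation, with a median of -0.24, it was Cdca7, at -0.78 ± 0.05. E2f4, the E2F that acts mainly with pocket proteins as a repressor, was lower at -0.76 ± 0.11, and on the WT array it equalled the Rb-deleted array at 0.00 ± 0.12. No other gene of the 13 analysed in the E2F and pocket protein list was past the filter. None of 35 genes of G2/M and mitosis was past the filter in either direction, and their median was 0.05, with Birc5, the survivin gene, at 0.65 ± 0.06 and Spc25, a kinetochore protein, at 0.54 ± 0.08. On the WT array the median of the mitotic genes against the Rb-deleted array was -0.24.

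Cdkn1c, which encodes the Cdk inhibitor p57, was the only one of 16 genes for G1 cyclins, Cdks and inhibitors past the filter. It read 4613 on the parental, 8789 on the Rb-deleted, 7049.1 on the WT Rb-HA and 2504 on the ΔCdk array, a difference of -1.79 ± 0.03. Cdkn1a, the p21 gene and a target of p53, was bright on both arrays and differed by -0.18 ± 0.05. No p53 target of 34 analysed was past the filter, and their median was -0.17, with Pmaip1, the gene of the death-promoting protein Noxa, at 0.41 ± 0.06 and Ei24 at -0.39 ± 0.06 as the largest differences.

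Cdkn1c is also imprinted, as is Dlk1, which encodes a membrane protein that holds back adipocyte formation. Dlk1 read 13283 on the parental, 19306 on the Rb-deleted, 16491 on the WT Rb-HA and 6218 on the ΔCdk array, a difference of -1.64 ± 0.04. Its second probe differed by -2.38 ± 0.04. In a list of imprinted growth genes that was put together after these values were seen, 2 of 13 analysed genes were lower, Cdkn1c and Dlk1, and the median was -0.23. H19 differed by -0.65 ± 0.04 on its brightest probe, just under the filter, and by -0.88 ± 0.04 on its second probe, which is past it. Igf2 differed by -0.23 ± 0.05. In the IGF axis none of 15 genes was past the filter on its brightest probe, with H19 and Igfbp3, a carrier of IGF, at -0.63 ± 0.09 as the largest differences.

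**Figure D2:**
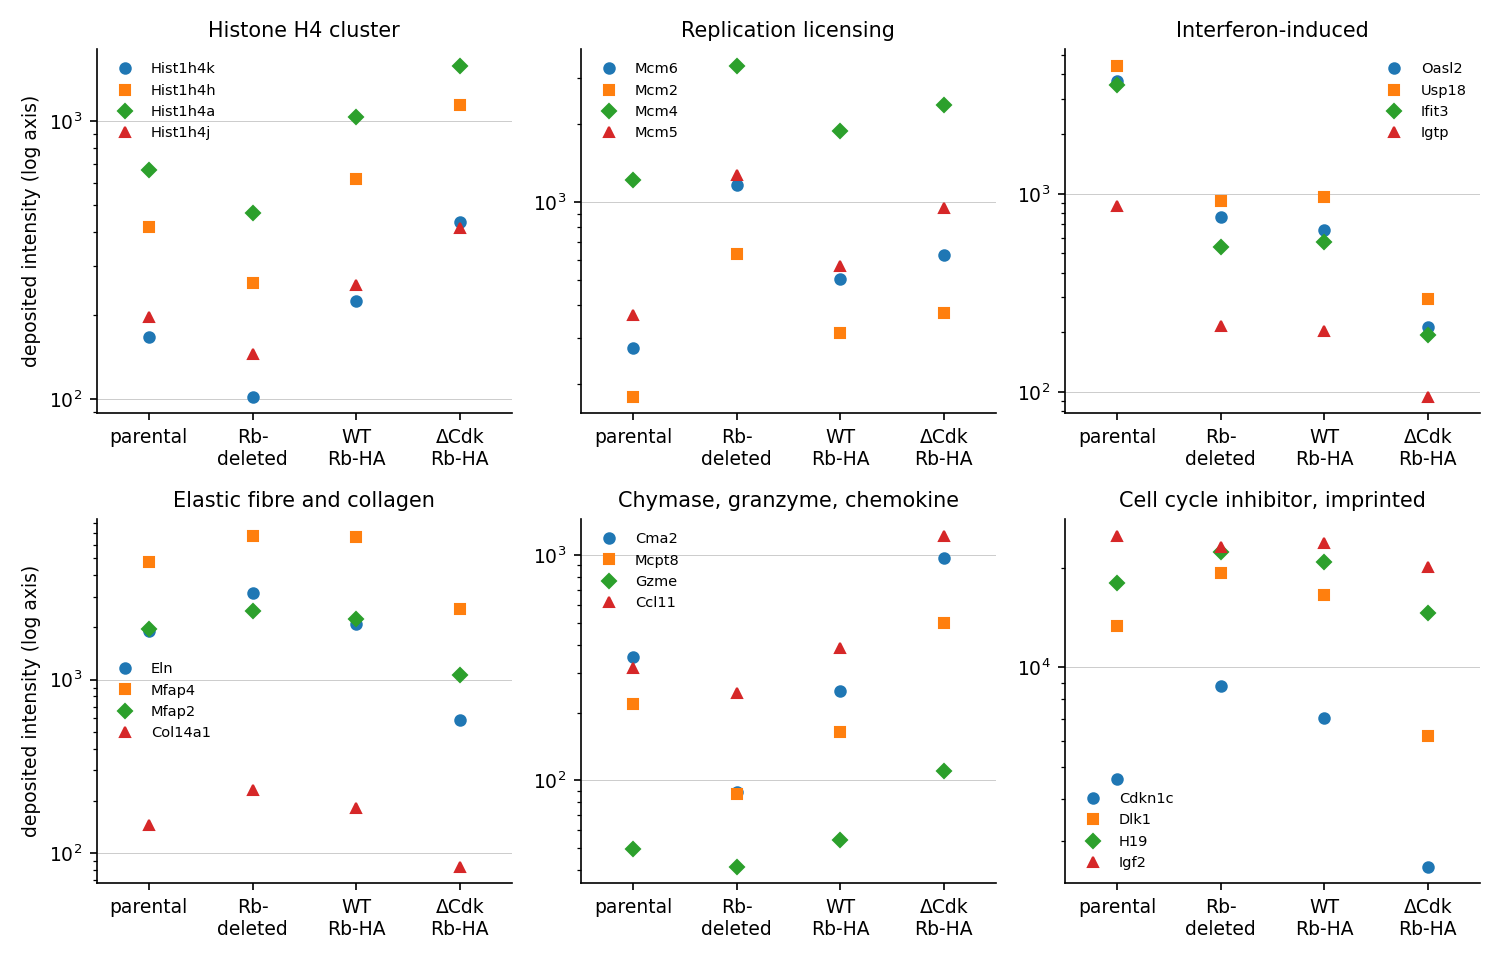
Deposited intensity on a log axis of 4 genes in each of 6 groups on the arrays of parental cells, Rb-deleted cells, WT and ΔCdk, 1 point an array and gene. H4 histone, chymase and granzyme genes are highest and interferon-induced and elastic fibre genes lowest in ΔCdk Rb-HA, while the Mcm genes lie between the Rb-deleted and WT arrays.

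Genes of the elastic fibre were lower for 4 of 18 analysed members and higher for none. Eln, the gene of elastin and, with Scg2, the largest decrease, read 3174 on the Rb-deleted, 2080.3 on the WT Rb-HA and 588 on the ΔCdk array, a difference of -2.45 ± 0.09. Its parental intensity was 1904. Mfap4, a microfibril-associated protein, read 6749, 6669 and 2555 on the 3 arrays of Cre-treated cells, a difference of -1.43 ± 0.06. Ltbp4, which binds latent TGF-beta, and Mfap2 differed by -1.42 ± 0.09 and -1.22 ± 0.05. For all 4 genes ΔCdk Rb-HA was the lowest of the 4 arrays. The median of the list was only -0.22, and the other main structural gene, Fbn1 for fibrillin, differed by -0.23 ± 0.06, so the lower values belonged to 4 genes and not to the list as a whole.

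Collagen genes were lower for 4 and higher for 2 of 32 analysed members, with a median of -0.15. Col14a1, a collagen on the surface of fibrils, read 230.0 on the Rb-deleted and 83.7 on the ΔCdk array, a difference of -1.79 ± 0.10. Col8a2, Col15a1 and Col6a2 differed by -1.53 ± 0.07, -1.29 ± 0.09 and -0.80 ± 0.06. The higher members were Col10a1, known from growth plate cartilage, at 1.25 ± 0.10 and P4ha1, a collagen-modifying enzyme, at 0.84 ± 0.07. Col1a1 and Col3a1, the main fibrillar collagens of fibroblasts, differed by -0.20 ± 0.07 and -0.25 ± 0.07. Matrix metalloproteinases and their inhibitors gave 2 higher and 2 lower genes of 20, with the collagen- and matrix-degrading Mmp10 at 1.58 ± 0.06 and Mmp13 at 0.94 ± 0.04, and the gelatinase Mmp9 at -0.83 ± 0.06. Mmp15, not detected on the ΔCdk array, was lower by at least 1.45-fold, which is under the filter. In the myofibroblast and TGF-beta list Thbs1, the thrombospondin gene, was higher at 0.82 ± 0.07, and Postn, for periostin, and Tgfb1 were lower at -0.89 ± 0.14 and -0.72 ± 0.09, of 29 analysed.

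Outside the probes named by a number, the 2 largest differences were those of Cma2 and Mcpt8, genes of secreted proteases. Cma2, a chymase-like serine protease, read 88.4 on the Rb-deleted, 248 on the WT Rb-HA and 969.9 on the ΔCdk array, a difference of 3.89 ± 0.09, and 353 on the parental array. Mcpt8, a mast cell protease family member known from basophils, read 87.1, 164 and 501 on the same 3 arrays, a difference of 2.93 ± 0.11, and 219 on the parental array. Both genes were lowest in Rb-deleted cells, and their order over the arrays was the same. Gzme and Gzmd, granzymes of the same protease family, were not detected on the Rb-deleted array and were higher by at least 2.84-fold and 2.61-fold. The second probe of Gzmd differed by only 0.23 ± 0.17. Of the 7 analysed genes of this list 4 were higher. Its median was 1.41, which is the value of Gzmd, and it was 0.82 with the mean over probes and 0.83 with a background offset of 50.

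The other mast cell genes on the array did not share this. Cpa3 and Fcer1a, which define mast cells, were not detected on either array, and Kit differed by 0.02 ± 0.17. Of the 19 genes of this list on the array, 12 were not detected on either one. The summed intensity of the 7 analysed genes was 430 on the Rb-deleted, 696 on the WT Rb-HA and 1865 on the ΔCdk array, and 846 on the parental array.

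Ivl, which encodes involucrin of the skin barrier, read 206 on the Rb-deleted, 358 on the WT Rb-HA and 1043 on the ΔCdk array, a difference of 2.54 ± 0.08. Of a list of cornified envelope genes made after these values were seen, 7 of 19 were analysed and 5 were higher. Lce1g, not detected on the Rb-deleted array, was higher by at least 3.42-fold, and Lce1f and S100a8 differed by 1.74 ± 0.13 and 1.50 ± 0.09. The prolactin family genes Prl2c3, Prl2c4 and Prl2c2, differed by 1.48 ± 0.07, 1.43 ± 0.08 and 1.21 ± 0.07. That list, of 3 analysed genes, was also made afterwards, and its members are close copies that probes may not separate.

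Chemokines moved in both directions. Ccl11, the eosinophil attractant eotaxin, read 246 on the Rb-deleted, 386 on the WT Rb-HA and 1221 on the ΔCdk array, a difference of 2.47 ± 0.05. LOC100048554, annotated as similar to the chemokine MCP-2, differed by 2.68 ± 0.08, and Ppbp, a platelet chemokine, by 2.19 ± 0.13. Among 17 genes of the chemokine list, Ccl11 and Cxcl14, at 0.78 ± 0.06, were higher and 4 were lower. Ccl4 and Ccl5, which attract leukocytes, differed by -0.92 ± 0.11 and -0.73 ± 0.08, and on the WT array by -0.70 ± 0.09 and -0.27 ± 0.11. The second probe of Ccl4 differed by -0.37 ± 0.17. Cxcl10 and Ccl3, which were not detected on the ΔCdk array, were lower by at least 1.61-fold and 1.47-fold, the latter under the filter. Il11, a cytokine of the IL-6 family, read 785 on the Rb-deleted, 1304 on the WT Rb-HA and 2400.0 on the ΔCdk array, a difference of 1.67 ± 0.10. Il6ra, a receptor of that family, differed by -0.70 ± 0.08, although its other detected probes differed by 0.22 ± 0.18 and -0.001 ± 0.11. Of 12 complement genes Cd59a, which protects cells from lysis, was higher at 1.10 ± 0.06 and C2 lower at -0.75 ± 0.06. Among the leukocyte markers Cd53, a tetraspanin, was the only one past the filter, at 1.42 ± 0.08.

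Several smaller groups had single genes past the filter. Scg2, a granin stored in secretory vesicles, read 174 on the Rb-deleted, 126 on the WT Rb-HA and 51.2 on the ΔCdk array, where it was not detected, and it was lower by at least 4.74-fold. Another 3 genes of this list of 12 were higher, Cck for cholecystokinin at 1.09 ± 0.08, Tac1 for substance P at 1.00 ± 0.07, and Gal for galanin, which was not detected on the Rb-deleted array and was higher by at least 1.44-fold. Nptx1, for a neuronal pentraxin, was not detected on the ΔCdk array and was lower by at least 2.93-fold. Dnali1, for a dynein light chain, was not detected on the Rb-deleted array and was higher by at least 2.77-fold, and AW120700, for which the table gives no description, differed by -1.57 ± 0.11. Of 8 adipogenic genes Dlk1 and Lpl, the lipoprotein lipase gene, were lower, the latter at -1.14 ± 0.05, and Adfp, for a lipid droplet protein, was higher at 1.12 ± 0.18. Of 23 genes of cholesterol and fatty acid synthesis 1 was lower and none was higher, with a median of 0.06. Of the sex-linked genes Xist differed by -0.81 ± 0.07, while Ddx3y of the Y chromosome differed by -0.23.

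Other lists held no gene past the filter. For 50 genes of the mitochondrial respiratory chain the median was 0.05, with Atp5f1, a subunit of the ATP synthase, at 0.46 ± 0.05. For 17 immediate early genes, which respond within minutes to growth factors or stress, the median was 0.01, with Myc at -0.49 ± 0.13 and Klf2 at -0.44 ± 0.05. The largest differences among the markers of other cell types were those of Sox10 and Krt18, at -0.59 ± 0.11 and -0.58 ± 0.16.

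**Figure D3:**
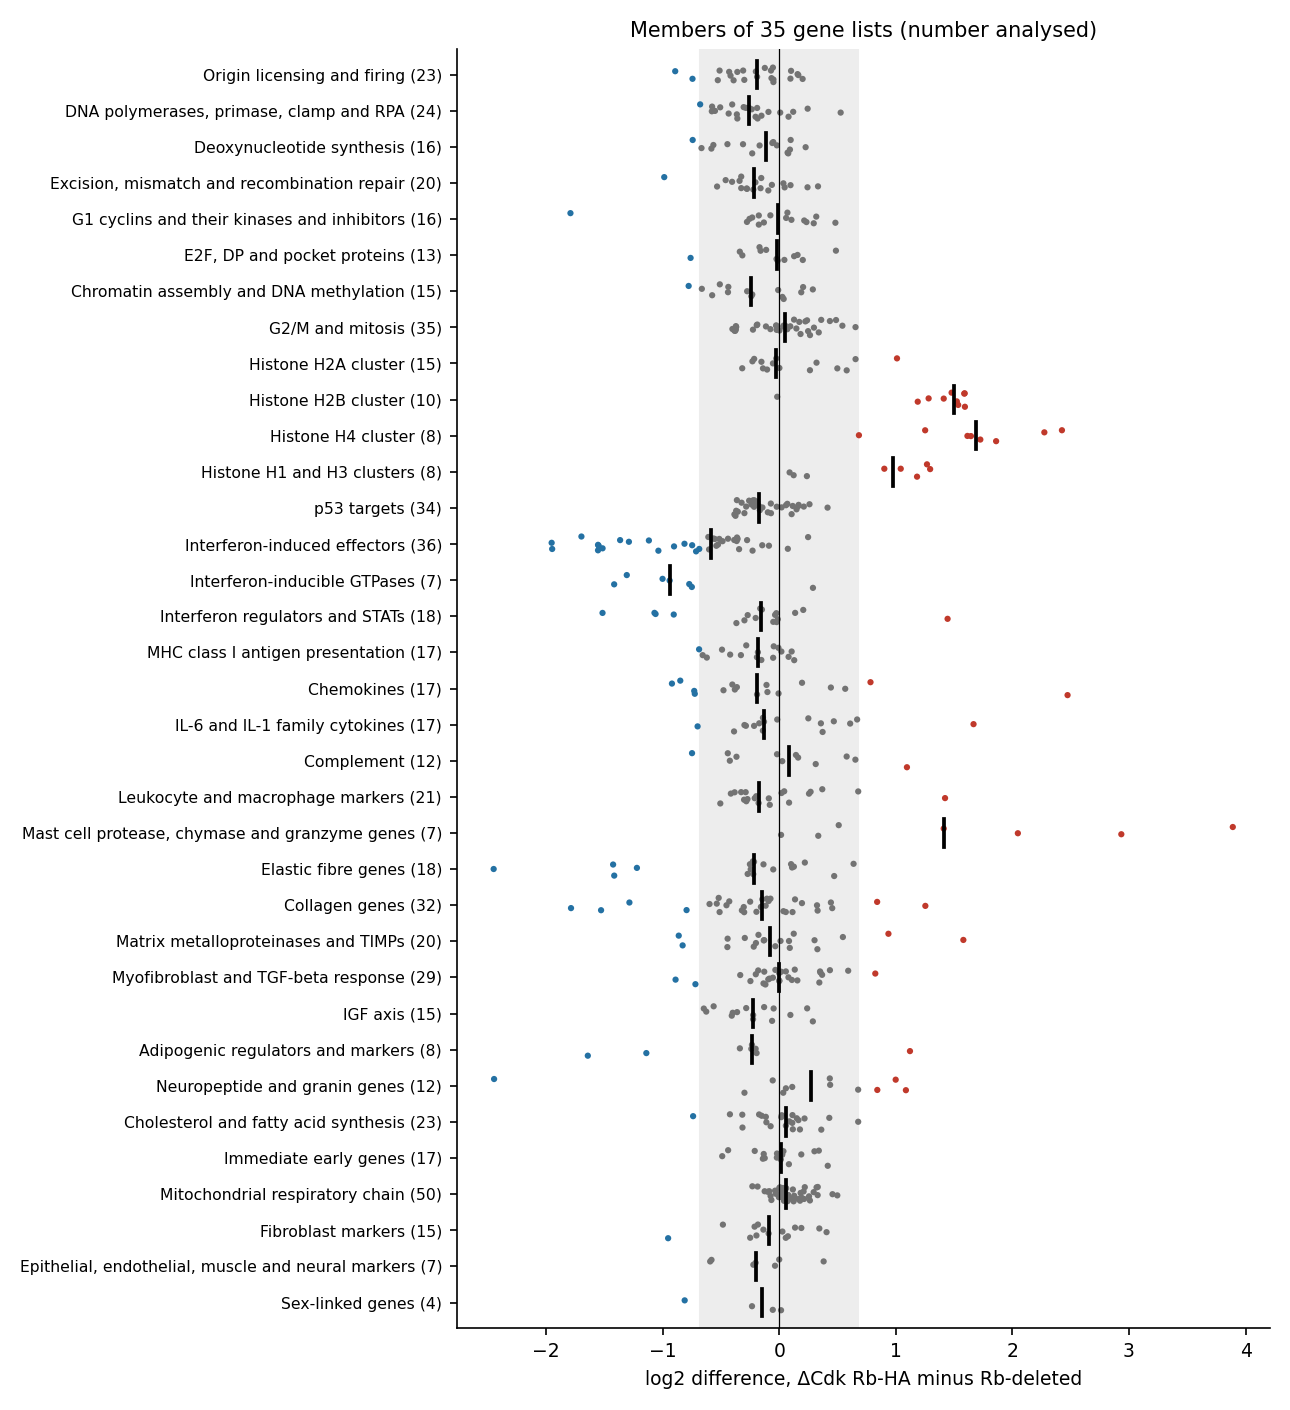
Log2 difference, ΔCdk Rb-HA minus Rb-deleted, of each analysed member (points) of 35 gene lists, with the list's median (black bar). The grey band is within 1.6-fold. All 8 H4 genes and 9 of 10 H2B genes lie to the right of it, 6 of 7 interferon-inducible GTPases to the left, and all respiratory chain genes inside it.

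Annotation terms of the table were counted over the same genes. Nucleosome assembly was carried by 13.4% of the annotated higher genes, 0.64% of the lower and 0.93% of all annotated genes analysed. Immune response was carried by 8.33% of the lower, 1.16% of the higher and 1.67% of all genes. Response to virus was carried by 3.85% of the lower genes, 0 of the 172 annotated higher genes and 0.26% of all genes. The terms extracellular matrix, at 13.3% of the lower, 3.24% of the higher and 1.88% of all genes, and cell adhesion, at 12.2%, 2.33% and 2.94%, were also more frequent among the lower genes. The broader term extracellular region was frequent in both directions, at 23.2% of the higher and 27.1% of the lower genes against 6.90% of all. DNA replication was carried by 4 of 156 annotated lower genes and 0 of 172 higher genes, against 1.25% of all, and mitosis by none of either.

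Second probes were compared with the chosen ones, since 1 array a side leaves the probes as the only repeat of a measurement. They share the RNA of the same arrays and are no replicates. Of the higher genes 70 had another detected probe, 88 probes in all, of which 79 differed in the same direction and 33 also by more than 1.6-fold. Of the lower genes 71 had one, 95 probes in all, of which 92 differed in the same direction and 38 by more than 1.6-fold. The median of the other probes was 0.55 for higher genes, where the chosen probes had 0.84, and -0.58 for lower genes, where the chosen ones had -0.81. Cma2 read 48.8 and 338 on its second probe, a difference of 3.64 ± 0.13, and Ccl11, Ivl and Usp18 kept differences of 2.16 ± 0.08, 1.96 ± 0.12 and -1.37 ± 0.11. Oasl2 and Ifit3 were smaller on their second probes, at -0.77 ± 0.13 and -0.72 ± 0.15, both of which were dim. Further named genes with a smaller difference on a second probe included Igfbp3 at -0.17 ± 0.04 and Col6a2 at -0.23 ± 0.06. P4ha1 and Spc25 were among them too, at 0.37 ± 0.09 and 0.21 ± 0.11. The 3 other detected probes of Mcm6 gave -0.77 ± 0.05, -0.50 ± 0.14 and -0.08 ± 0.14. In 2 genes, which were picked after their values were seen, another probe was past the filter in the opposite direction. Ctsa, for a lysosomal protease, differed by 0.95 on the chosen and by -1.53 ± 0.10 on the other probe, and Gsn, for the actin-severing protein gelsolin, by 0.90 and -0.78 ± 0.11, so no direction is given for them.

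**Figure D4:**
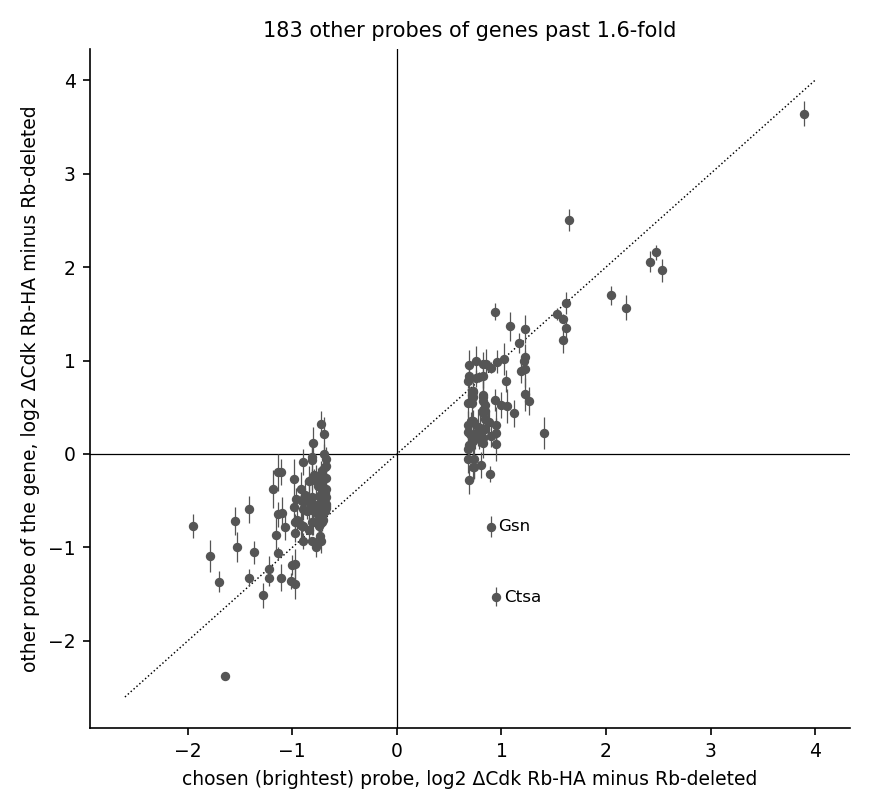
Log2 difference, ΔCdk Rb-HA minus Rb-deleted, of the chosen probe (x axis) and of each other detected probe (y axis, with its bead SE) for genes past 1.6-fold, 183 probes in all. The dotted line marks equality. Most points lie in the same quadrant as the chosen probe, and Gsn and Ctsa lie far in the opposite one.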

How the data were processed

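Expression was measured on 4 Illumina MouseWG-6 v2.0 arrays, 1 for each condition in the labels. The authors deposited, per probe and array, the mean intensity over beads without normalization between arrays, a detection p-value, the bead standard error (a signal in intensity units) and the count of beads, whose median was 44. The software and background settings are not given in the sources used here. Of 45281 probes, 40 had symbols turned into dates and 34 were restored through RefSeq. From these values, background was corrected by normexp from the detection p-values (limma 3.58.1 in R 4.3.3, offset 16), followed by quantile normalization of the 4 arrays and log2 transformation. Quantile normalization sets all arrays to 1 distribution, so a global shift would not be seen. Bead standard errors were carried through the same curve. An undetected level gave a bound, the higher of its own value and the lowest detected value of that array. The steps were tested on simulated data. No test was possible with 1 array a side. Named genes were Rb1, the 15 largest increases and decreases past 1.6-fold with and without background correction, and, in each of 35 lists, up to 4 genes each way or, with none past it, the 2 largest differences, and 3 genes so named are not reported here. The members and lists were chosen with earlier results of these data known, and 3 lists were added after the values were seen. The number of arrays limits the precision.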

Additional observations from a re-analysis of the deposited data

How the results depend on the processing

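The counts moved with the background correction and the threshold. Of genes past 1.6-fold, 161 were higher and 118 lower without it, and 140 and 108 with an offset of 50, against 292 and 246, since both settings shrink differences between dim probes. At 2-fold the counts were 99 and 67. Quantile normalization of the 2 arrays alone, median scaling, detection on both arrays, no filter on dim probes, the mean over probes and a further limit of 2 bead SE kept both counts within 1.5 times, between 247 and 320 higher and between 203 and 246 lower. No named gene past the filter changed sign under any setting in which it had a value. The median of the mast cell protease, chymase and granzyme list fell from 1.41 to 0.94 without background correction, 0.83 with the offset of 50 and 0.82 with the mean over probes, and that of the H4 genes was 1.48 with the offset of 50. The medians of the H2B, effector, GTPase, elastic fibre and licensing lists moved by less than 2 bead SE under all settings run, the effectors between -0.63 and -0.44 and the GTPases between -0.97 and -0.79. No paired analysis was possible because each group has 1 array, and for the same reason no replicate could be left out. Dim probes near an intensity of 50 set the limit of detection.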
